A study of Mus musculus with 3 samples.

Results

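The mevalonate pathway turns acetyl-CoA into the isoprenoid units from which squalene, and then cholesterol, are built. The genes of its steps from acetyl-CoA to squalene epoxide were followed in single mouse embryonic stem cells; these are Acat2, Hmgcs1, Mvk, Pmvk, Mvd, Idi1, Fdps, Fdft1 and Sqle. They were matched by symbol, and all 9 were found among the 29267 gene identifiers of the count tables. The cells were blastocyst-derived embryonic stem cells on a C57BL/6J background. All of them carried loxP-flanked Mll1 alleles (Mll1fl/fl) and Cre-ER TM, a Cre recombinase that acts once its ligand is given. Mll1, now named Kmt2a, encodes a histone H3 lysine 4 methyltransferase. Cells of type 1 were the Mll1fl/fl control, cells of type 2 were Mll1-/- (called deleted here), and cells of type 3 had Mll1 inhibition (called inhibited here). All 3 types were on each of 3 plates, so that 9 libraries, each the sum of 1 cell type on 1 plate, were compared. The labels name no inhibitor, dose, time or deleted exon, and they do not say whether the deleted cells are a single clone or whether the plates held separate cultures. The p-values thus reflect variation from plate to plate only, and that variation could be technical.

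As background, the acetyl-CoA acetyltransferase ACAT2 joins acetyl-CoA units, and the synthase HMGCS1 adds a further unit to give HMG-CoA, from which mevalonate is made. The kinases MVK and PMVK and the decarboxylase MVD turn mevalonate into isopentenyl diphosphate, the isomerase IDI1 converts that into its allylic isomer, and FDPS joins these units to farnesyl diphosphate. Farnesyl diphosphate feeds protein prenylation, dolichol and ubiquinone as well as sterols; FDFT1 commits it to squalene, and SQLE oxidises squalene. When sterols are scarce, the transcription factor SREBP2, encoded by Srebf2, enters the nucleus and binds sterol regulatory elements, usually next to sites of the factor NF-Y, at most genes of the route.

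Promoter sequence was examined in windows of 300 bases, from 250 before to 50 after the start site, as given by RefSeq for GRCm38.p6. Of the members, 6 had a window: Acat2, Hmgcs1, Mvk, Pmvk, Mvd and Idi1. The 250 bases before the start site of 3 of them are shown because they span the range of motif content, and because Hmgcs1 had the largest difference between cell types. Bases in capitals are matches, on either strand, to the sterol motif TCACNCCA or its longer form TCACNCCAC, which contains the shorter one, and to the NF-Y motif CCAAT. A match of the latter on the other strand reads ATTGG.
Hmgcs1, chr13:119690101-119690350, plus strand: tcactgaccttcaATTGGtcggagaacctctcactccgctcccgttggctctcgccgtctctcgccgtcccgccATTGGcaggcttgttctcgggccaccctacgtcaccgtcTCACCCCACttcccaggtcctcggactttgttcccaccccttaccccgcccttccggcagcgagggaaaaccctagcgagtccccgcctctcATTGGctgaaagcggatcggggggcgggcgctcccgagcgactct
Mvk, chr5:114444019-114444268, plus strand: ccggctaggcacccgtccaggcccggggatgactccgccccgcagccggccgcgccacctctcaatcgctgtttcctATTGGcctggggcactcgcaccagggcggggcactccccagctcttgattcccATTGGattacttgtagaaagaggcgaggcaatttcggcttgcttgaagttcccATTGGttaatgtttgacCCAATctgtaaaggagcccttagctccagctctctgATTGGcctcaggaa
Acat2, chr17:12960726-12960975, minus strand: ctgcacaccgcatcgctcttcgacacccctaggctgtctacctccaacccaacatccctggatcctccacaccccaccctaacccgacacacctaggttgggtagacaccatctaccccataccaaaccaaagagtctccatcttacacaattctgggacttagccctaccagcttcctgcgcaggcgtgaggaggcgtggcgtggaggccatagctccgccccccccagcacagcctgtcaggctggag

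Of the 6 members with a window, Hmgcs1 was the 1 that held the sterol motif, as TCACCCCAC starting at position -137, counted from the start site. The short form was present in 4.36% and the long form in 1.24% of all 32851 windows in the table. CCAAT was present in 5 of the 6, in all but Acat2, and in 37.4% of all windows. Mvk held 5 copies and Hmgcs1 held 4, the last of them 11 bases after the start and so outside the bases shown. The GC box motif GGGCGG was present in 5 of the 6, in all but Pmvk, and in 35.7% of all windows. Among 10 genes of later sterol synthesis with a window, CCAAT was present in 10 and the short sterol motif in 1, Msmo1. These matches describe letters in a window and are not measured binding sites.

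A well was kept if it had 1000 or more genes detected and less than 20% of its unique molecular identifiers (UMIs, which count molecules) from the mitochondrial genome, which left 4413 of 4610 cells: 1513 control, 1310 deleted and 1590 inhibited. The 9 libraries held 25914860 to 43773924 UMIs, with a median per well of 39644, 34721 and 32890 UMIs in the 3 types. Plates shared 436 to 503 well barcodes pairwise, all at the same chip position, so that a barcode marks a position and not a cell. All 13 pluripotency markers checked were present at a mean of at least 1 CPM (UMI counts per 1000000), among them Pou5f1 at 54.3 and Zfp42 at 132 CPM. Kmt2a itself was at 51.7 ± 2.60 CPM in control, 50.4 ± 11.4 in deleted and 43.6 ± 3.02 in inhibited cells (SD, n = 3 plates). Because the deleted exons are not named, this level over the whole gene does not check the deletion label. The 15 wells without cells held 2719 UMIs in all, 1 of which was from a member (Fdps).

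The treatment of reads that match more than 1 gene, and the use of strand, are not given in the sources used here. This bears on 4 members above all. Idi1 has a processed pseudogene, Gm13502, whose transcript is identical to it over 684 bases, and in these tables the pseudogene was counted at 13.9 CPM on average, above Idi1 itself at 4.33 CPM. Fdps has the pseudogenes Gm3571 (98.9% identical over 1062 bases, 28.3 CPM) and Gm5873 (96.7%, 6.29 CPM), against 190 CPM for Fdps. Fdft1 has Gm6781 (97.4%, 2.79 CPM) and shares 774 bases of exon with Ctsb on the opposite strand, which was at 86.1 CPM. Acat2 has the tandem paralog Acat3 (97.7% over 1477 bases, 1.24 CPM) and matches Tcp1 over 445 bases (98.7%, 275 CPM). Reads of these genes and their copies may have been split or exchanged, so the Idi1 value above all is uncertain. Hmgcs1 and Idi1 also overlap an unmeasured antisense or unclassified gene over 12.1 and 9.22% of their exon length, and Fdps overlaps a gene on its own strand over 26.7%. No near-identical transcript or exon overlap was found for Mvk, Pmvk, Mvd or Sqle.

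The level of each step was compared per kilobase of exon, as CPM per kb, in control cells. Fdps was the highest member at 37.0 ± 3.43 CPM per kb (SD, n = 3), and Idi1 the lowest at 1.30 ± 0.374. Between them came Pmvk (25.7 ± 1.63), Acat2 (20.2 ± 2.32), Fdft1 (14.4 ± 2.47), Hmgcs1 (14.0 ± 1.32), Mvd (10.7 ± 0.219), Sqle (8.37 ± 0.912) and Mvk (3.61 ± 0.215). The enzymes of neighbouring steps were thus unequal in transcript level: the kinase gene Pmvk stood far above Mvk, whose product feeds it. Of the neighbours in this order, Fdft1 (12.6 to 17.2) and Hmgcs1 (12.9 to 15.5) overlapped between plates, and the other pairs did not. In deleted cells Hmgcs1, at 22.4 ± 1.69, took the third place, though its range of 21.1 to 24.3 overlapped that of Acat2 (19.7 to 23.6). In inhibited cells the order was that of control cells. If only one transcript end was counted, which is not stated, division by exon length understates long transcripts; without it Pmvk was in place 6 and Hmgcs1 in place 2.

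**Figure D1:**
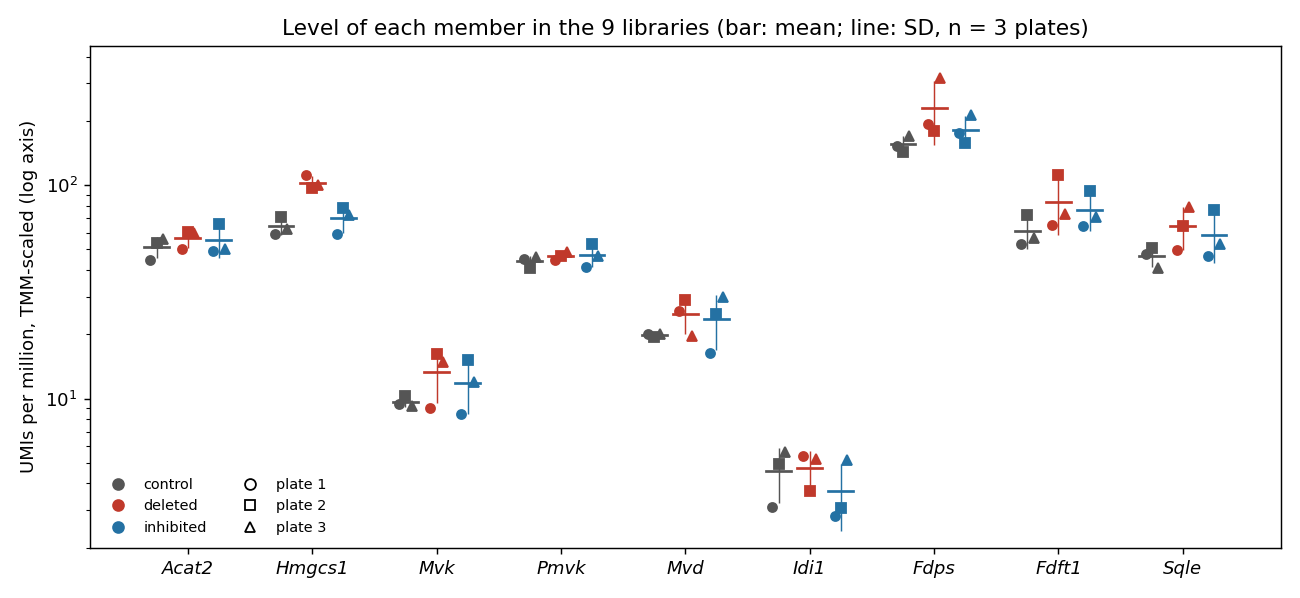
Level of the 9 members in pathway order, in CPM on a log axis, for each of the 9 libraries; colours are cell types, symbols are plates, bars are means and vertical lines SD over 3 plates. Hmgcs1 lies at 97.0 to 112 CPM in the 3 deleted libraries and at 58.8 to 78.2 CPM in the 6 others, while Pmvk stays between 40.8 and 53.2 CPM in all 9.

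Deleted cells had higher fitted levels of all 9 members than control cells, with the largest differences at Hmgcs1, Fdps, Sqle and Fdft1, and none passed the test over all genes. Hmgcs1, the enzyme that makes HMG-CoA, had a level in control cells of 59.4 CPM on plate 1, 71.2 on plate 2 and 62.7 on plate 3. In deleted cells it was at 112, 97.0 and 100 CPM on the same plates. The groups did not overlap, and the deleted library was the higher one on every plate. The mean was 103 ± 7.77 against 64.4 ± 6.06 CPM (SD, n = 3), a log2 difference of 0.68 ± 0.12 (SE; 1.61-fold; edgeR quasi-likelihood test, Benjamini-Hochberg (BH) adjusted p = 0.12).

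Fdps, the synthase at the branch point, was at 153, 143 and 171 CPM in control cells; the deleted cells had 194, 180 and 320 CPM. All 3 deleted libraries lay above all 3 control libraries, and that of plate 3 was far above the other two. The log2 difference was 0.53 ± 0.11 (edgeR adjusted p = 0.170), and without plate 3 it was 0.34. Its pseudogene Gm3571 followed the same plate, at 58.4 CPM in the deleted library of plate 3 and 17.9 to 38.9 CPM in the 8 others.

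Fdft1, the squalene synthase, was at 53.2, 72.7 and 56.5 CPM in control cells; the deleted cells had 65.4, 112 and 73.1 CPM. Each deleted library exceeded the control of its plate, but plate 2 was high in both types and the groups overlapped. The log2 difference was 0.43 ± 0.10 (edgeR adjusted p = 0.197).

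Sqle, the squalene epoxidase, was at 47.6, 50.8 and 40.9 CPM in control cells; the deleted cells had 49.9, 64.4 and 79.3 CPM. The plates differed in size here, from a log2 difference of 0.07 on plate 1 to 0.96 on plate 3. The fitted value was 0.46 ± 0.17 (edgeR adjusted p = 0.397), and without plate 3 it was 0.20.

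The other five members differed less or less evenly. Mvk (0.41 ± 0.22, edgeR adjusted p = 0.578) and Mvd (0.32 ± 0.22, adjusted p = 0.698) were higher on 2 of 3 plates, and Idi1 (0.09 ± 0.34, adjusted p = 0.964) on 1. Pmvk (0.08 ± 0.12, adjusted p = 0.888) and Acat2 (0.14 ± 0.11, adjusted p = 0.753) had the smallest SE of these. With the copies counted together with it, Idi1 was at -0.28 (adjusted p = 0.673), an alternative chosen after seeing the data.

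Of the 9 members, 0 passed the BH threshold of 0.05 in edgeR, where 6 of 17119 genes tested did, 0.035%. At an unadjusted p under 0.05, 4 members were higher (Hmgcs1, Fdps, Fdft1 and Sqle), against 5.11% of all genes, and 2 had groups that did not overlap with deleted cells higher, against 5.44%. The median log2 difference was 0.41 over the 9 and 0 over all genes tested. The pathway was chosen with an upward shift of cholesterol synthesis genes in these same libraries known, so these counts describe it and do not test it. DESeq2 called 3 members, Hmgcs1 (adjusted p = 2.08e-05), Fdps (0.000469) and Fdft1 (0.00642), among 325 called of 10813 genes with an adjusted p. With no filter on low counts edgeR called 2 members, Hmgcs1 and Fdps, among 179 called of 29206 genes. A further fit used the 3538 wells with at least 10000 UMIs, each thinned to 10000 so that every cell in it weighs the same. It left out 229 control, 301 deleted and 345 inhibited wells, so the cells differ as well as their weight. Hmgcs1 was called there by edgeR (0.65, adjusted p = 0.0183), among 48 called of 11826 genes. Fdft1 was at 0.12, Sqle at 0.29, Mvk at 0.71 and Idi1 at 0.95.

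Markers of another cell type and the mitochondrial share moved with the same comparison. The 9 trophectoderm markers tested all had higher fitted levels in deleted cells, with a median log2 difference of 0.61, against 0.41 for the members. Of them 0 passed the adjusted threshold. At an unadjusted p under 0.05 in edgeR 6 were higher, against 5.11% of all genes, and 6 had groups that did not overlap, against 5.44%. The 10 listed summed to 1040 to 1700 CPM in deleted, 798 to 937 in control and 588 to 940 CPM in inhibited cells. Keratins made up most of that sum (Krt18 at 729 and Krt8 at 205 CPM on average), whereas Cdx2 was at 4.07 CPM and Elf5 at 0.0158 CPM. The median mitochondrial share was 3.81 to 4.16% in deleted and 3.07 to 3.18% in control libraries; among wells under 10%, Hmgcs1 was at 0.71 (edgeR adjusted p = 0.0987). The part of the trophectoderm markers in the result was not tested.

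Other genes of the sterol system were described from lists. In late sterol synthesis, from squalene epoxide to cholesterol, 8 of 11 tested genes were above 0 with a median of 0.21, and 3 had an unadjusted p under 0.05, all higher. These were Msmo1, the methyl sterol oxidase (115 ± 23.9 against 79.1 ± 18.6 CPM; 0.54 ± 0.09, edgeR adjusted p = 0.0997), Cyp51, the lanosterol demethylase (0.59 ± 0.12, adjusted p = 0.166), and Lss, the lanosterol synthase (0.62 ± 0.19, adjusted p = 0.320). On thinned wells Lss was at 0.07 and Msmo1 at 0.25, while Cyp51 was at 0.55. Among genes of SREBP regulation and sterol uptake or export, 16 of 19 were above 0 with a median of 0.23. Mbtps1 was at 49.2 ± 6.59 CPM after deletion against 37.8 ± 2.24 CPM in the control, with no overlap (0.37 ± 0.13, edgeR adjusted p = 0.348). Srebf2 was at 0.40 ± 0.18 (edgeR adjusted p = 0.474), and Insig1, which encodes an anchor that holds SREBP back, at 0.43 ± 0.19 (adjusted p = 0.477). Abcg1, a sterol exporter, went the other way, with a mean of 0.288 ± 0.184 CPM after deletion against 1.22 ± 0.549 CPM in the control (-2.27 ± 0.76, adjusted p = 0.346), close to the lower end of what was measured. In the isoprenoid branches 10 of 16 genes were above 0 (median 0.10), with Ggps1, the geranylgeranyl diphosphate synthase, at -0.58 ± 0.22 (adjusted p = 0.408), and in fatty acid synthesis 9 of 11 (median 0.18), with the desaturase Scd2 at 0.40 ± 0.11 (adjusted p = 0.254) and at 0.07 on thinned wells. None of the genes of these 4 lists passed the BH threshold in edgeR.

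**Figure D2:**
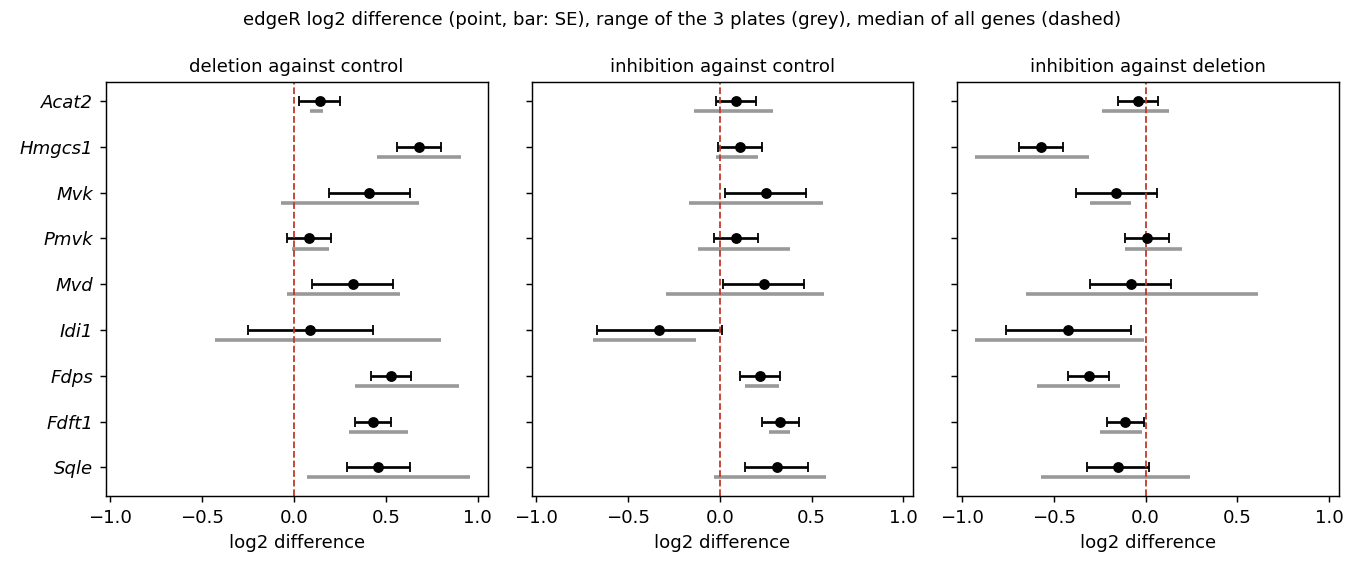
Log2 difference of each member in the 3 comparisons; points and black bars are the edgeR estimate and its SE, grey lines the range of the 3 within-plate differences, and the dashed line the median of all genes tested. Hmgcs1 stands at 0.68 for deletion against control, 0.11 for inhibition against control and -0.57 for inhibition against deletion.

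Inhibited cells were compared with the same control libraries. Hmgcs1 was at 58.8, 78.2 and 72.6 CPM in inhibited cells, with a log2 difference of 0.11 ± 0.12 from control (edgeR adjusted p = 0.858), and the groups overlapped. Fdft1 was the member with the smallest p, at 64.4, 94.4 and 71.0 CPM, above the control of its plate each time (0.33 ± 0.10, edgeR adjusted p = 0.369). Fdps was at 176, 158 and 213 CPM, also above control on every plate (0.22 ± 0.11, adjusted p = 0.595). The values of Fdft1 and Fdps were thus even across plates but small. Sqle (0.31 ± 0.17), Mvk (0.25 ± 0.22) and Mvd (0.24 ± 0.22) were higher on plates 2 and 3 and lower on plate 1, and Acat2 and Pmvk were both at 0.09. Idi1 was lower than control on all 3 plates, at 2.82, 3.06 and 5.15 CPM (-0.33 ± 0.34, adjusted p = 0.849).

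Of the 9 members, 0 passed the BH threshold in edgeR, where 1 of 17119 genes did, 0.00584%. At an unadjusted p under 0.05, 1 member, Fdft1, was higher, against 4.77% of all genes, and 0 had groups that did not overlap with inhibited cells higher, against 5.02%. The median was 0.22 over the 9 members and 0 over all genes, of which 49.9% were above 0. DESeq2 called 1 member, Fdft1 (adjusted p = 0.0413), among 277 called of 4507 genes with an adjusted p. It gave no adjusted p for Idi1, Mvd and Mvk. With wells thinned to 10000 UMIs the value of Fdft1 was 0.12 (edgeR adjusted p = 0.858), and without the deepest 5% of wells it was 0.16. Late sterol synthesis had 7 of 11 genes above 0 (median 0.09), with Cyp51 at 0.33 ± 0.12 (edgeR adjusted p = 0.445), Msmo1 at 0.24 ± 0.09 (0.472) and Lbr, a sterol reductase of the nuclear envelope, at 0.23 ± 0.10 (0.551). SREBP regulation had 11 of 19 above 0 (median 0.03), with Srebf2 at -0.03 ± 0.18 and Insig1 at 0.14 ± 0.19. Isoprenoid branches had 8 of 16 above 0, with Fntb, the farnesyltransferase beta subunit, at 20.3 ± 2.08 against 30.5 ± 4.80 CPM and lower on all 3 plates (-0.59 ± 0.14, adjusted p = 0.355).

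Marker lists moved with this comparison too. The 13 pluripotency markers summed to 4860 to 5710 CPM in inhibited and 6520 to 6700 CPM in control cells, with no overlap. Dppa5a alone, at 4950 CPM on average over the 9 libraries, made up most of that sum. By gene, 5 of the 13 had fitted values above 0 (median -0.14). Groups did not overlap for 3 lower and 1 higher in inhibited cells, against 1067 and 860 of 17119 genes tested. Of 16 S phase genes 13 were above 0, against 49.9% of all genes tested. At an unadjusted p under 0.05 in edgeR 7 of them were higher, against 4.77%. Of 10 primitive endoderm markers 1 was above 0, and 1 was lower at an unadjusted p under 0.05, against 724 of 17119 genes. Gata6, Sox17 and Pdgfra among them averaged under 1 CPM. In edgeR 0 genes of these lists passed the BH threshold. Their part in the member values was not tested.

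The direct comparison of inhibited with deleted cells, which tests whether both perturbations differ, uses the deleted and inhibited libraries already described. Hmgcs1 was lower in inhibited cells on every plate, with log2 differences of -0.93 to -0.31, and the groups did not overlap (-0.57 ± 0.12, edgeR adjusted p = 0.0901). Fdps was lower on every plate as well (-0.31 ± 0.11, adjusted p = 0.239). The other 7 members lay between -0.42 (Idi1) and 0.01 (Pmvk), so that 8 of the 9 values were below 0. Of the members, 0 passed the BH threshold in edgeR, where 53 of 17119 genes did, 0.31%. At an unadjusted p under 0.05, 2 members, Hmgcs1 and Fdps, were lower, against 6.68% of all genes, and 1, Hmgcs1, had groups that did not overlap with inhibited cells lower, against 6.38%. The median was -0.15 over the members and 0 over all genes, of which 49.6% were above 0. Hmgcs1 was called by DESeq2 (adjusted p = 0.000714), by edgeR with no filter on low counts (0.00246) and by edgeR on thinned wells (-0.64, adjusted p = 0.00901). These settings called 723 of 15127, 383 of 29206 and 161 of 11826 genes. In late sterol synthesis 2 of 11 genes were above 0 (median -0.22), with Lss at -0.66 ± 0.19 (edgeR adjusted p = 0.176), Msmo1 at -0.31 ± 0.09 (0.177) and Lbr, at 0.30 ± 0.10 (0.235), in the other direction; on thinned wells Lss was at 0.01. In SREBP regulation 5 of 19 were above 0 (median -0.26), with Srebf2 at -0.43 ± 0.18 (adjusted p = 0.324) and Insig1 at -0.30 ± 0.19. Of the 9 trophectoderm markers tested, 8 were below 0 in the same comparison and 3 passed the BH threshold as lower.

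Summed over the 9 members, the pathway took 436, 467 and 468 CPM on plates 1 to 3 in the control. The corresponding sums were 556, 609 and 720 CPM with deletion and 464, 569 and 554 CPM with inhibition. The deleted sum was the highest of the 3 types on every plate, and the deleted and control groups did not overlap. Fdps alone made up 27.7 to 44.4% of the sum. The mean within-plate log2 difference was 0.45 for deletion against control (0.35 to 0.62), 0.21 for inhibition against control (0.09 to 0.28) and -0.25 for inhibition against deletion (-0.38 to -0.10). Each had the same sign on all 3 plates, and each gave p = 0.25 in a two-sided exact permutation of signs, the smallest that 3 plates allow. On wells thinned to 10000 UMIs the value for inhibition against control was 0.07 (exact permutation p = 0.5), and without the deepest 5% of wells it was 0.11. The sum counts transcripts of a whole library, so fewer cells with the pathway active and less RNA per cell cannot be told apart in it.

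Within a plate, wells also carry a dispense order number, and each type occupied 2 or 3 of them, which makes 24 groups of wells with the same plate and number. The 7 deleted groups had a summed member level of 559.0 to 801.5 CPM before scaling between libraries, the 8 control groups 418.4 to 537.5 CPM and the 9 inhibited groups 425.8 to 588.7 CPM. Every deleted group thus lay above every control group. The numbers used by a type differed between plates: the deleted cells had 7 and 8 on plates 1 and 2, and 2, 4 and 6 on plate 3. For Hmgcs1 alone the deleted groups had 82.8 to 116 CPM, the control groups 53.0 to 76.8 CPM and the inhibited groups 42.1 to 91.1 CPM. These groups share a plate and a library and are not replicates.

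**Figure D3:**
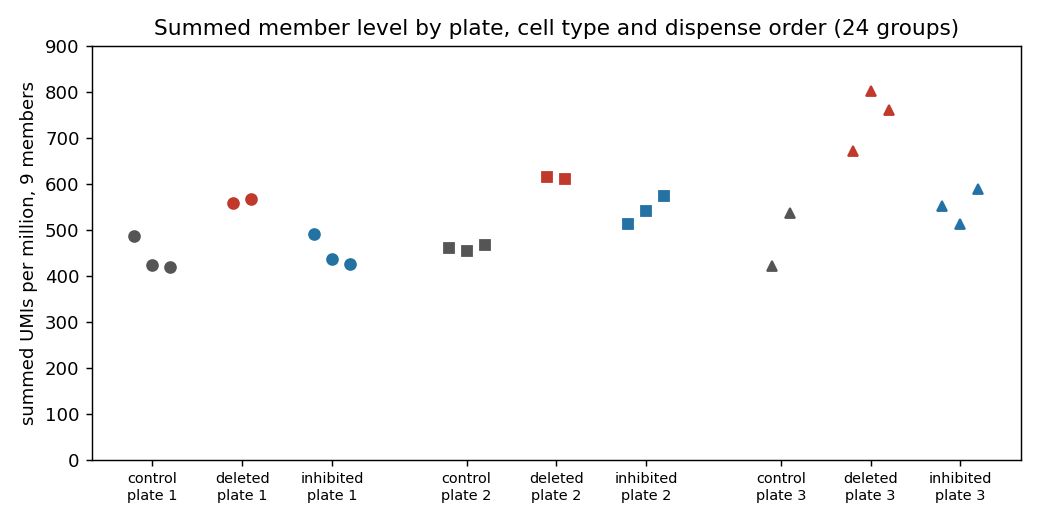
Summed level of the 9 members, in CPM, for each group of wells with the same plate and dispense order; colours are cell types and symbols plates. The 7 deleted groups lie at 559.0 to 801.5 CPM and the 8 control groups at 418.4 to 537.5 CPM.

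To ask how many cells carried a transcript, each well was thinned at random to 10000 UMIs, which 3538 wells reached; 229 control, 301 deleted and 345 inhibited wells were shallower and left out. Hmgcs1 was then seen in 30.2, 32.9 and 35.3% of control wells on plates 1 to 3, in 41.7, 43.4 and 42.8% of deleted wells and in 26.6, 30.4 and 29.7% of inhibited wells. The deleted wells were above both other types on every plate, by 9.84 percentage points over control on average (7.51 to 11.5) while the inhibited wells differed from them by -13.7 points, and from control by -3.89 points (-5.60 to -2.49; at 5000 UMIs -1.92, with 1 plate above 0). Each of these differences at 10000 UMIs gave p = 0.25 in an exact permutation of signs, the smallest possible with 3 plates. Before thinning the shares were 56.9, 52.3 and 63.3% in control, 65.0, 70.9 and 54.4% in deleted and 50.4, 48.6 and 54.2% in inhibited wells. The order on plate 3 was then the reverse for control and deleted cells, where the median depth was 42339 UMIs in control and 23556 in deleted wells. In wells without cells 0 of 15 held an Hmgcs1 UMI, at a median of 165 UMIs; that depth is too low to set a background share.

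The other members showed smaller differences in share. Fdps was the most often seen, in 54.1 to 64.0% of control, 56.9 to 67.2% of deleted and 50.7 to 56.8% of inhibited wells. Idi1 and Mvk were the least often seen, in 2.47 to 4.20% and 5.31 to 6.64% of control wells. In deleted against control wells the mean share was higher for 7 members and higher on all 3 plates for 5; Hmgcs1 and Sqle were the 2 that were so at each depth of thinning tried (5000, 10000 and 20000 UMIs). In inhibited against control wells it was higher for 2 members at 10000 UMIs. On all 3 plates 1 member, Mvk, was higher there, and 3, Fdps, Hmgcs1 and Pmvk, were lower. The share of Fdps differed by -4.45 points on average (-0.25 at 5000 and -0.857 at 20000 UMIs), though its CPM was above control on every plate. Across the 3 depths, 0 members stood on one side of control on all 3 plates each time. Mvk, for example, was lower on all 3 plates at 5000 UMIs and higher on all 3 at 10000. In inhibited against deleted wells 0 members had a higher mean share, and 6 were lower on all 3 plates, of which Hmgcs1, Fdft1 and Sqle were so at each depth. Shares were not taken over all genes, so these counts do not show whether the members differ from other genes in this.

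**Figure D4:**
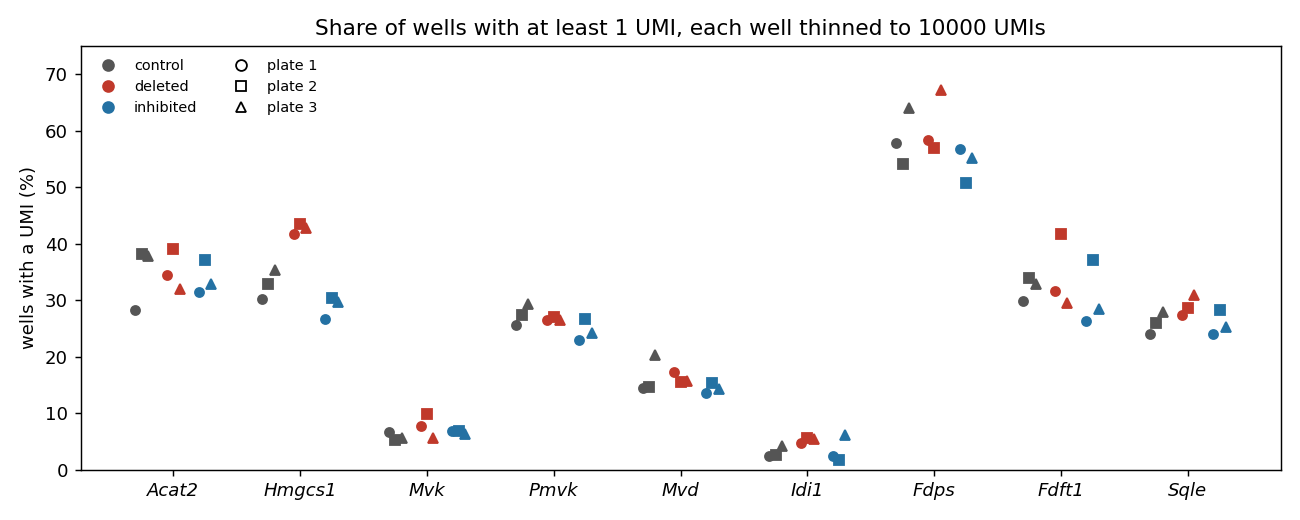
Share of wells with at least 1 UMI of each member after thinning to 10000 UMIs, for each of the 9 libraries; colours are cell types and symbols plates. Hmgcs1 is seen in 41.7 to 43.4% of deleted wells and in 26.6 to 35.3% of the others.

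Few wells carried a large part of each member's UMIs. The 10 wells with most gave 22.6 to 39.8% of the Hmgcs1 UMIs of a library and 16.0 to 33.5% of those of Fdps. For the rarer members the 10 wells gave more, at 38.7 to 71.8% for Mvk and 48.1 to 70.0% for Idi1, of which a library held 87 to 199 UMIs. After thinning, variance over mean of the counts between wells, which is 1 for pure counting, averaged 2.63 for Hmgcs1, 2.91 for Fdft1, 3.41 for Fdps and 3.56 for Sqle, and 1.98 for Idi1, the 1 member with a mean under 0.1 thinned UMIs. The median over all genes with a mean of at least 0.1 thinned UMIs was 2.82, with 1.55 and 4.30 as the 5th and 95th percentiles. The members therefore lay within the range of all genes.

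Whether the members varied together from well to well was described by Pearson's r of log2(1 + thinned count) within each library of 286 to 527 wells. Wells of a library share their preparation, and a weak correlation in counts this sparse is no finding. The mean r over the 36 pairs was 0.0248 ± 0.0123 (SD over 9 libraries; 0.0102 to 0.0498), against a median of 0.0014 over 29242128 pairs of 7648 genes. The pairs were uneven. The closest were Fdps with Fdft1 (0.113), Hmgcs1 with Fdft1 (0.107), Pmvk with Fdft1 (0.0763), Fdft1 with Sqle (0.0671) and Hmgcs1 with Fdps (0.0647). In all, 7 of the 36 pairs lay above 0.0586, the 99th percentile of all pairs, and 6 of these joined Hmgcs1, Fdps, Fdft1 and Sqle with each other. This grouping depended on depth. At 5000 UMIs 4 pairs lay above the 99th percentile, 3 of them among these 4 genes, and at 20000 UMIs 9 did, 4 of them among these genes. The pairs above it at every depth were Fdps with Fdft1, Hmgcs1 with Fdft1, Hmgcs1 with Fdps and Pmvk with Fdft1. The pairs of all genes were not matched for level. These 4 genes averaged 0.568 to 1.65 thinned UMIs and Acat2, outside the group, 0.576, against a median of 0.377 over all genes. Idi1, at 0.0495, was below the mean of 0.1 asked of those genes. The part of level in the grouping was not tested.

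Against the mean of the other 8 members, Fdft1 had the highest r (0.155, above 0 in 9 of 9 libraries), followed by Fdps (0.102), Hmgcs1 (0.101) and Sqle (0.0882). Acat2, Mvk and Idi1 were lowest, at 0.0216, 0.0154 and 0.0079. The mean r of the 36 pairs was 0.0219 in control, 0.0308 in deleted and 0.0217 in inhibited cells. The differences between types gave exact sign-permutation p values of 0.75 for deleted against control, 1.0 for inhibited against control and 0.25 for inhibited against deleted, over 3 plates.

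**Figure D5:**
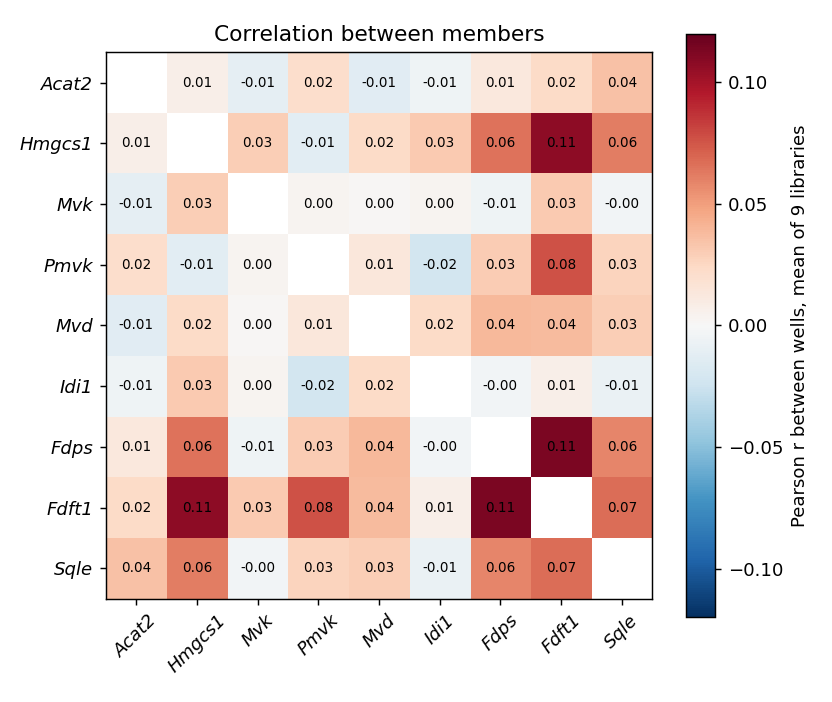
Pearson's r between wells for each pair of members, as the mean of 9 libraries with wells thinned to 10000 UMIs; red is above 0 and blue below, and the diagonal is left blank. The pairs among Hmgcs1, Fdps, Fdft1 and Sqle lie at 0.0588 to 0.113.

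The genes whose wells followed the mean of the members most closely, among 7640 genes ranked by mean r over the 9 libraries, were Msmo1 (0.172), Gm3571 (0.171), Cd9 (0.146), Anxa2 (0.145), Tagln (0.143), Tagln2 (0.141), Tpm4 (0.140), Tmem59 (0.140), Cd81 (0.137) and Fxyd6 (0.136). Msmo1 encodes an enzyme of late sterol synthesis, and Gm3571 is the Fdps pseudogene, whose reads cannot be told apart from those of Fdps with certainty. Over all ranked genes the median was 0.00321 and the 99th percentile 0.0814. Cyp51 was in place 54 (0.0904), Insig1 in place 58 (0.0887) and Srebf2 in place 3024 (0.00942). Each list was then taken as the mean of its scaled genes with at least 0.1 thinned UMIs on average. Late sterol synthesis (7 of 12 listed genes) followed the members at 0.162 and trophectoderm markers (7 of 10) at 0.130. Both were above 0 in 9 of 9 libraries. Elf5, Cdx2 and Eomes had the lowest levels of the trophectoderm list, at 0.0158, 4.07 and 5.98 CPM on average. SREBP regulation stood at 0.0866 and fatty acid synthesis at 0.0834, pluripotency markers at -0.0772, S phase genes at -0.00762 and genes of G2 and mitosis at -0.0165. The depth of the well before thinning followed the members at 0.0561 and its mitochondrial share at -0.0544.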

How the data were processed

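Single embryonic stem cells of 3 types on 3 plates were measured by RNA sequencing in wells of a chip. The authors deposited raw UMI counts per gene and well; Subread 1.4.6-p1, featureCounts and the aligner STAR 2.5.2b, with the build mm10, are named by the submitters' processing notes. Each well's type, dispense order and position come from the report the authors deposited with each plate, whose other columns were used to check the counts: UMI and gene totals were equal in all 4640 wells. Spike-in and reporter rows took 0.646 to 0.752% of UMIs and were left out.

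Counts of kept wells were summed per plate and type and tested with edgeR 4.0.16 (R 4.3.3): TMM, filterByExpr, quasi-likelihood F test, plate as block, BH over 17119 genes, threshold 0.05. Plate pairs these libraries by design, since the labels put all types on each plate. Same-plate deviations correlated at 0.301 to 0.48 (9 pairs), other pairs at -0.304 to -0.0403 (18 pairs). Deviations were taken from the mean of each type over its plates, so positive same-plate values bring negative ones between plates by construction. CPM are scaled by TMM. The test was also run on simulated counts, whose means and dispersions came from the main fit and which held no plate effect. Alternatives were DESeq2 1.42.0, RLE size factors, no filter, no block, each plate left out, thinned wells, shallower or cleaner wells and only the types compared. Doublets were not called; the fit without the deepest 5% of wells bears on them. Near copies were found with BLAST 2.17.0 among GENCODE M21 transcripts (GRCm38), which also gave exon lengths.

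Members and gene lists were chosen with earlier results of these data known. Named genes were all members, Srebf2, Insig1 and Acat3, in each list up to 3 genes with the smallest p, and the 10 genes most like the members. Other genes of the rule are not reported here.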

Additional observations from a re-analysis of the deposited data

How the results depend on the processing

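The number of members called, 0 in each comparison in edgeR, was 3, 1 and 1 with DESeq2 (deletion against control, inhibition against control, inhibition against deletion), 2, 0 and 1 with no filter on low counts and 1, 0 and 1 on thinned wells. It was 0 in every comparison with RLE size factors, without a replicate block, without each plate, without the deepest 5% of wells, under 10% mitochondrial UMIs, with only the types compared and with near copies added. Without the replicate block the genes called fell from 6, 1 and 53 to 0, 0 and 3. With DESeq2 325 of 10813, 277 of 4507 and 723 of 15127 genes with an adjusted p were called. With no filter the calls were 179, 108 and 383 of 29206 genes. On thinned wells they were 48, 65 and 161 of 11826 genes.

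Signs changed for small values and for some larger ones. In the main fit Lss was at -0.66 for inhibition against deletion. For inhibition against control Srebf1 was at -0.40, Idi1 at -0.33, Nr1h2 at 0.29 and Msmo1 at 0.24. For deletion against control Acat2 was at -0.05 on thinned wells and Idi1 at -0.28 with near copies added and at -0.28 to 0.36 over the plates left out (lowest without plate 1). For inhibition against control, thinning gave -0.01 for Acat2, 0.37 for Idi1, -0.13 for Msmo1 and -0.25 for Nr1h2; leaving out the deepest 5% of wells gave -0.02 for Hmgcs1, 0.11 for Idi1, 0.01 for Srebf2 and 0.01 for Srebf1; leaving out a plate gave -0.19 to 0.10 for Srebf2 (highest without plate 1) and, lowest without plate 2, -0.05 to 0.20 for Pmvk and -0.0028 to 0.21 for Acat2. For inhibition against deletion Acat2 was at -0.13 to 0.05 over the plates left out and at 0.03 on thinned wells, Pmvk at -0.09 to 0.05 over the plates left out, -0.02 on thinned wells and -0.08 without the deepest wells, Mvd at -0.42 to 0.17 (highest without plate 1), Sqle at -0.36 to 0.08 (highest without plate 3) and Lss at 0.01 on thinned wells. The cause was not tested. The summed level for inhibition against control was 0.07 on thinned wells and 0.11 without the deepest 5% of wells, against 0.21.

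The number of members with a higher share of wells in inhibited than control cells, 2, was 4 at 5000 UMIs and 0 without thinning; in inhibited than deleted cells, 0, it was 1 at 5000 and at 20000 UMIs. The mean r of the 36 pairs was 0.0170 at 5000 and 0.0449 at 20000 UMIs, against 0.0248. The median variance over mean of the members was 1.96 at 5000 and 4.28 at 20000 UMIs; it grows with depth by construction. Depth limits Idi1 and Mvk most, and 3 plates cannot give an exact p below 0.25.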
